A study of Mus musculus with 12 samples.

Results

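The genes described here are 32 mouse genes that mark macrophages and other myeloid cells of the liver. They were taken by name from a list of Kupffer cell, monocyte and pan-myeloid genes, and each of the 32 matched 1 of the 54838 gene identifiers in the deposited count table. By role, 11 mark resident Kupffer cells, 3 mark monocytes and 18 are shared by macrophages and other myeloid cells. Of the 32, 30 passed the filter on low counts and were tested among 13861 genes, while the monocyte genes Ly6c2 and Cx3cr1 did not pass. The myeloid surface gene Ms4a7 passed through the normoxia libraries alone, so that a lower value in hypoxia was built into its being tested. The rule used names and no measured value, but the list was drawn up with earlier results of these data known.

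The samples were whole livers of C57BL/6J mice, each sequenced as poly-A RNA after total RNA extraction. Normoxia_PBS mice breathed 21% O2 and received phosphate-buffered saline (PBS), and Normoxia_DEX mice breathed 21% O2 and received dexamethasone (DEX), a synthetic glucocorticoid, at 10 mg/kg into the peritoneal cavity. Hypoxia_PBS and Hypoxia_DEX mice breathed 7% O2 for 24 h, received the same injections and went back to 7% O2. Livers of all 4 groups were taken 2 h after the injection, with 3 biological replicates per group, and age and sex are not stated in the labels used here. The design crosses oxygen with DEX, so each gene was compared between hypoxia and normoxia under each injection, between DEX and PBS at each oxygen level, and between these DEX responses.

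Kupffer cells are the macrophages that live inside the liver sinusoids, where they take up particles, dying cells, haemoglobin complexes and lipoproteins from the blood. They are seeded before birth and maintain themselves in the healthy liver, depend on signals through the receptor CSF1R, and carry a set of lectins and scavenger receptors that few other macrophages share. Monocytes are the blood precursors that enter the liver through the chemokine receptor CCR2 and can replace lost Kupffer cells, and the transcription factor PU.1, encoded by Spi1, is required in the whole lineage. Glucocorticoids act on macrophages directly through the glucocorticoid receptor and are known to induce the haemoglobin scavenger receptor Cd163.

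Total counts ranged from 12464687 to 24715995 per library. Levels are given as CPM, the read counts of each library rescaled to the same total, on library sizes adjusted by the trimmed mean of M values (TMM). The standard error (SE) beside a log2 fold change was derived as its absolute value over the square root of the edgeR quasi-likelihood F statistic. Each log2 fold change is also given with the Benjamini-Hochberg adjusted p of that F test over all tested genes. A gene is called higher or lower where that adjusted p was under 0.05. Hypoxia_DEX-1 and Hypoxia_DEX-3 were nearly alike, with a chi-square of 1.79 per gene between them and 10.5 to 38.4 for other replicate pairs, and they are also treated as 1 summed library wherever that ended a call. On the second principal component, which separated DEX from PBS, Hypoxia_DEX-2 scored 9.22 against 21.5 and 21.4 in its group and Hypoxia_PBS-1 scored -6.36 against -25.5 and -22.2. The summed level of 5 hepatocyte genes, led by Alb, ran from 108735 to 144538 CPM over the 12 libraries, as in whole liver, and markers of resident Kupffer cells were detected in every library with none of the 11 at 0.

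Hypoxia was accompanied by lower levels of nearly the whole myeloid gene set. In PBS mice 29 of the 30 tested members were called lower and 0 higher, against a background of 16.8% of all tested genes called lower and 18.9% called higher. In DEX mice, which share no library with the PBS comparison, 29 of 30 members were again called lower and 0 higher, against 22.2% lower and 20.7% higher of all tested genes. The members were chosen with earlier results of these data known, so these counts describe the list and are no independent test. Without Ms4a7 the counts were 28 of 29 in both comparisons, and 28 members were lower in both. The exceptions were Cd163 in PBS mice, at a log2 difference of -0.20 ± 0.25 (adjusted p = 0.58, edgeR), and the transcription factor gene Irf8 in DEX mice, at 0.019 ± 0.27 (adjusted p = 0.961, edgeR). The count of 0 higher held at an unadjusted p under 0.05 and with DESeq2 in both comparisons. The median log2 fold change of the tested members was -1.15 in PBS mice and -1.15 in DEX mice, while that of all tested genes was 0.0069 and -0.021. In whole-liver RNA, fewer cells of a type and less RNA per cell cannot be told apart.

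**Figure D1:**
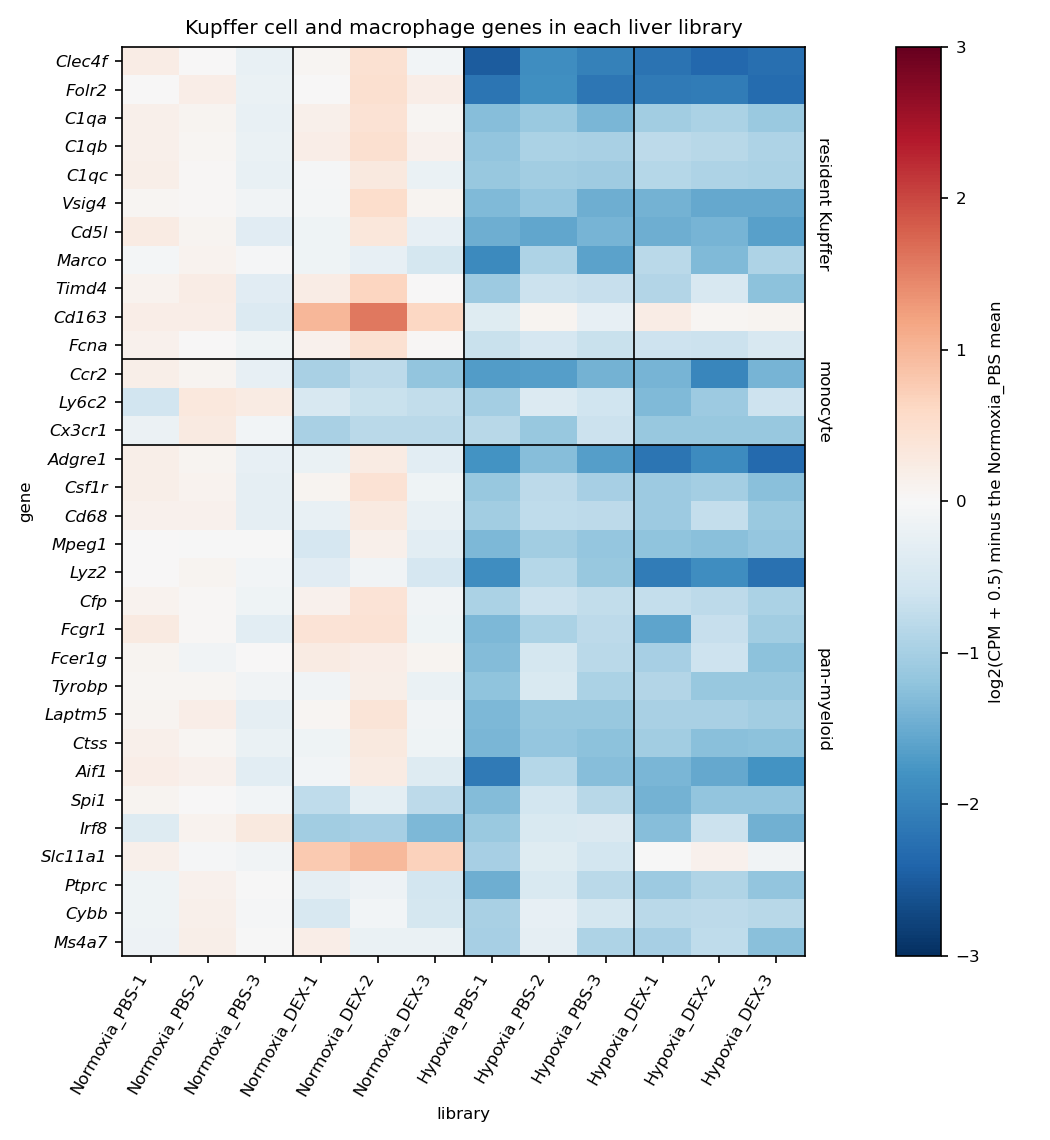
Each row is 1 of the 32 genes and each column 1 of the 12 libraries. Colour gives log2(CPM + 0.5) minus the mean of the 3 Normoxia_PBS libraries, with blue for lower and red for higher, and the lines separate the 4 groups and the resident Kupffer, monocyte and pan-myeloid genes. The 6 hypoxia columns on the right are blue for most genes, and Cd163 and Slc11a1 are red in the Normoxia_DEX columns.

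Of the 11 resident Kupffer genes, 10 were lower in hypoxia in PBS mice and 11 in DEX mice, with a median log2 fold change of -1.27 and -1.24. Their summed level was 492 to 644 CPM in Normoxia_PBS, 558 to 798 in Normoxia_DEX, 219 to 264 in Hypoxia_PBS and 250.3 to 266 in Hypoxia_DEX. The hypoxia groups lay below every normoxia library.

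Clec4f, a galactose-binding C-type lectin found in mouse almost exclusively on Kupffer cells, was at 130.4, 114 and 96.2 CPM in Normoxia_PBS, 117, 156 and 106 in Normoxia_DEX, 19.7, 30.6 and 27.5 in Hypoxia_PBS and 23.7, 21.7 and 23.3 in Hypoxia_DEX. Every hypoxia library lay far under every normoxia library, and the DEX and PBS libraries overlapped at both oxygen levels. The level in Hypoxia_PBS was 22.8% of that in Normoxia_PBS, a log2 fold change of -2.13 ± 0.18 (SE, edgeR adjusted p = 1.08e-05). In DEX mice the difference was -2.47 ± 0.19 (adjusted p = 3.28e-06, edgeR). Folr2, a folate receptor of tissue macrophages, showed 13.3, 15.1 and 11.5 CPM in Normoxia_PBS, 13.4, 18.8 and 15.4 in Normoxia_DEX, 2.51, 3.36 and 2.55 in Hypoxia_PBS and 2.66, 2.71 and 2.26 in Hypoxia_DEX. Its pattern was like that of Clec4f, with no overlap between oxygen levels and overlap between DEX and PBS. Among the tested members Folr2 had the largest fall in both hypoxia comparisons, at -2.25 ± 0.17 in PBS mice (adjusted p = 1.68e-06, edgeR) and -2.65 ± 0.17 in DEX mice (adjusted p = 2.82e-07, edgeR). An exon of Folr2 overlaps the opposite-strand gene Gm10602, and without a stated strand setting their reads cannot be separated.

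Vsig4, the complement receptor CRIg with which Kupffer cells bind opsonized bacteria, was measured at 37.1, 36.4 and 32.7 CPM in Normoxia_PBS, 33.7, 51 and 37.4 in Normoxia_DEX, 13.9, 15.5 and 12.6 in Hypoxia_PBS and 12.9, 11.8 and 11.9 in Hypoxia_DEX. All 6 hypoxia libraries stood below the 6 normoxia libraries, with a log2 fold change of -1.34 ± 0.14 in PBS mice (adjusted p = 1.34e-05, edgeR) and -1.74 ± 0.14 in DEX mice (adjusted p = 1.37e-06, edgeR). Cd5l, a secreted inhibitor of macrophage apoptosis also called AIM, stood at 137, 123 and 89.98 CPM in Normoxia_PBS, 106, 145 and 96.8 in Normoxia_DEX, 41.3, 38.3 and 43.6 in Hypoxia_PBS and 41.3, 43.5 and 36.5 in Hypoxia_DEX. It fell to 35.2% of the normoxia level in PBS mice and to 34.9% in DEX mice (edgeR adjusted p = 6.74e-05 and 4.1e-05). Its DEX and PBS libraries overlapped at each oxygen level.

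The 3 chains of C1q, the recognition molecule of the classical complement pathway that tissue macrophages make, fell together. Their genes lie side by side on mouse chromosome 4 (GRCm38), C1qb at chr4:136880129-136886187, C1qc at chr4:136889804-136893065 and C1qa at chr4:136895917-136898803, all on the minus strand. C1qa was at 56.4, 53.9 and 43.9 CPM in Normoxia_PBS, 57.2, 69.4 and 53.5 in Normoxia_DEX, 20.8, 23.4 and 19.6 in Hypoxia_PBS and 24.7, 26.2 and 23.5 in Hypoxia_DEX. Under both injections its hypoxia libraries lay below its normoxia libraries without overlap. The log2 fold change of C1qa in hypoxia was -1.27 ± 0.12 in PBS mice and -1.28 ± 0.12 in DEX mice (edgeR adjusted p = 5.76e-06 and 3.4e-06). C1qb had log2 fold changes of -1.05 and -1.13 and C1qc of -1.11 and -0.96 in the same comparisons, each with an edgeR adjusted p of at most 4.7e-05. Within hypoxia the 3 chains were higher in every DEX library than in every PBS library, by log2 differences of 0.22, 0.19 and 0.18 that were not called (edgeR adjusted p = 0.257, 0.309 and 0.394). For DEX in hypoxia 7 of the 30 tested members had no overlap, in both directions. The share over all genes was not computed, so this lack of overlap is not read as a result.

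Fcna, a ficolin that starts the lectin pathway of complement, was at 58.6, 53.6 and 48.6 CPM in Normoxia_PBS, 58.9, 73.9 and 55.1 in Normoxia_DEX, 33.6, 37.7 and 33.4 in Hypoxia_PBS and 34.8, 34.3 and 38.2 in Hypoxia_DEX. It had the smallest fall of the called resident genes in PBS mice, at -0.62 ± 0.11 (adjusted p = 0.000713, edgeR), and it fell by 0.81 ± 0.11 in DEX mice (adjusted p = 6.91e-05, edgeR), with no overlap between oxygen levels. Its exons overlap the opposite-strand gene Fcnaos. Marco, a scavenger receptor for bacteria and particles, was at 46.1, 52 and 47.1 CPM in Normoxia_PBS, 43.8, 40.8 and 33.5 in Normoxia_DEX, 12.6, 25.2 and 15.4 in Hypoxia_PBS and 27.2, 18.9 and 25.1 in Hypoxia_DEX. The oxygen groups did not overlap under either injection, and Normoxia_DEX-3 lay nearest to the hypoxia libraries. Marco fell by 1.46 ± 0.23 in PBS mice (adjusted p = 0.000714, edgeR) and fell by 0.72 ± 0.22 in DEX mice (adjusted p = 0.0225, edgeR). In DEX mice the call ended on leaving out Normoxia_DEX-1, Normoxia_DEX-2, Hypoxia_DEX-2 or Hypoxia_DEX-3, or the low-count filter, with adjusted p from 0.00151 to 0.0821 over the 19 alternatives.

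Timd4, a phosphatidylserine receptor that marks long-lived resident macrophages, was at 13.8, 15.1 and 10.02 CPM in Normoxia_PBS, 14.9, 20.2 and 13 in Normoxia_DEX, 5.79, 8.03 and 7.79 in Hypoxia_PBS and 6.69, 8.9998 and 5.15 in Hypoxia_DEX. The normoxia and hypoxia libraries did not overlap under either injection, although Normoxia_PBS-3 came near to the highest hypoxia libraries. Timd4 fell by 0.86 ± 0.23 in PBS mice (adjusted p = 0.0128, edgeR), a call lost without Normoxia_PBS-2 (adjusted p = 0.0532), and fell by 1.24 ± 0.23 in DEX mice (adjusted p = 0.00107, edgeR). Cd163, which clears haptoglobin-haemoglobin complexes, was at 32.2, 32.1 and 20.7 CPM in Normoxia_PBS, 56, 84.4 and 43.2 in Normoxia_DEX, 21.5, 29.6 and 23.4 in Hypoxia_PBS and 32.3, 29 and 29.6 in Hypoxia_DEX. It differed from the other resident genes in that its PBS libraries overlapped between oxygen levels. Every Normoxia_DEX library stood above all other libraries. In DEX mice Cd163 fell by 1.02 ± 0.25 in hypoxia (adjusted p = 0.00765, edgeR).

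**Figure D2:**
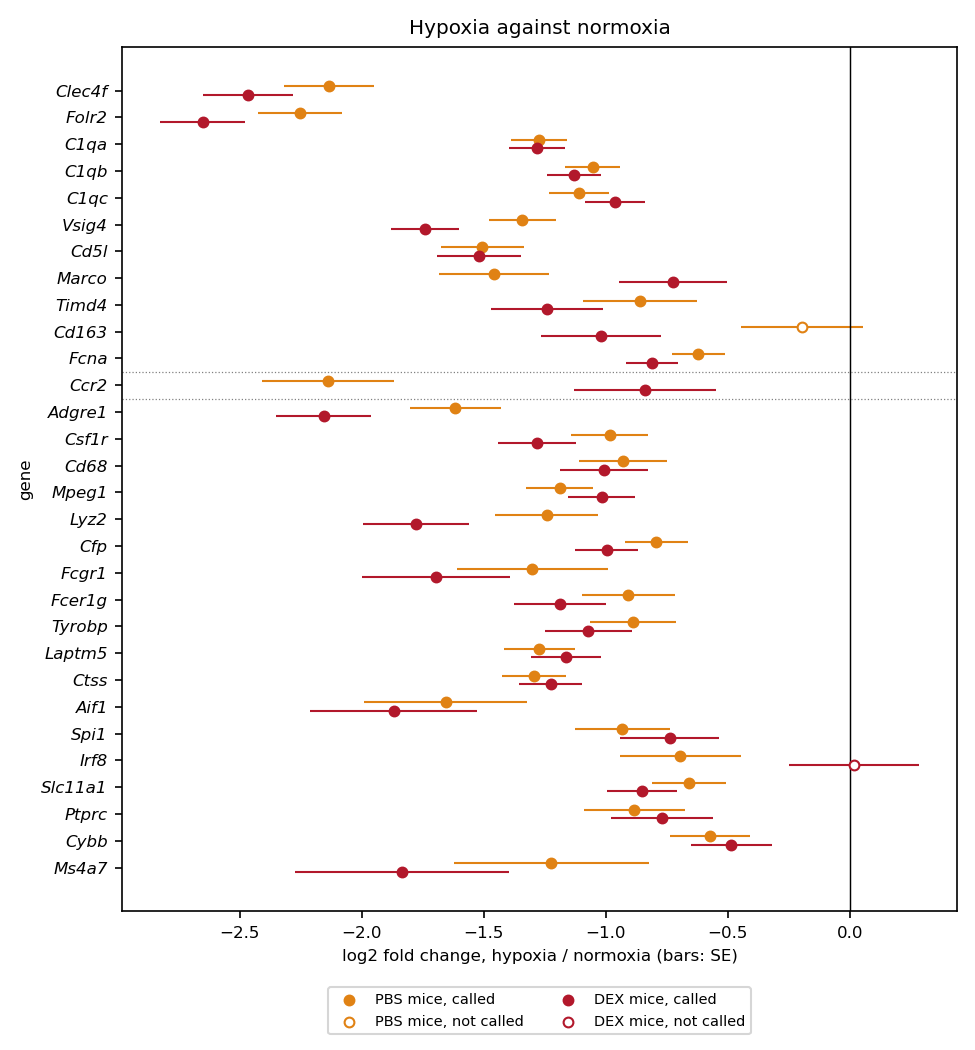
Points give the log2 fold change of hypoxia over normoxia for each tested gene, orange in PBS mice and red in DEX mice, with bars of 1 SE, filled where called and open where not. Dotted lines separate the resident Kupffer, monocyte and pan-myeloid genes. All points except the red one of Irf8 lie left of 0, with Folr2 and Clec4f farthest left in DEX mice.

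The falls were not equal, so the make-up of the resident signal differed between groups. Clec4f made up 19.5% ± 0.711 (SD, n = 3) of the summed resident CPM in Normoxia_PBS and 19.2% ± 0.276 in Normoxia_DEX, but 10.7% ± 1.48 in Hypoxia_PBS and 8.91% ± 0.387 in Hypoxia_DEX. The share of Fcna was 9.29% ± 0.530 in Normoxia_PBS and 14.6% ± 0.701 in Hypoxia_PBS. Cd163 had a share of 4.84% ± 0.572 in Normoxia_PBS, 9.15% ± 1.41 in Normoxia_DEX, 10.3% ± 0.790 in Hypoxia_PBS and 11.8% ± 0.370 in Hypoxia_DEX. The share of C1qa hardly moved, from 8.87% ± 0.0992 in Normoxia_PBS to 8.88% ± 0.631 in Hypoxia_PBS. Shares of 1 sum depend on each other, and no test was made on them.

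The promoter windows below are those of the resident genes in which a purine-rich core of the kind bound by PU.1, the factor encoded by the member Spi1, was found. The windows of Clec4f and Folr2, which had the largest falls of the resident genes, and of Vsig4, C1qb, Timd4 and Cd163 held 0 matches to it. Each is the 300-base window from 250 bases before to 50 bases after the annotated start in RefSeq (GRCm38.p6), written 5′ to 3′ on the gene's strand, with the core GAGGAAG, or CTTCCTC where it lies on the other strand, in capitals. C1qc is at chr4:136892865-136893164 (minus strand), Cd5l at chr3:87357631-87357930 (plus strand), Fcna at chr2:25627925-25628224 (minus strand) and Marco at chr1:120504975-120505274 (minus strand). In the window of Fcna 3 matches stand close together, and 2 of them run into each other.
C1qc: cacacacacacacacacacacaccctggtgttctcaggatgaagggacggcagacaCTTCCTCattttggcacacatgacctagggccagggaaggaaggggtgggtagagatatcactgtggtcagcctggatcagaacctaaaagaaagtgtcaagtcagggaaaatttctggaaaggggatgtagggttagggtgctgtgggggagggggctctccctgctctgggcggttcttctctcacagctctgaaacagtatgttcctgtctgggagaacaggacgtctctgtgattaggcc
Cd5l: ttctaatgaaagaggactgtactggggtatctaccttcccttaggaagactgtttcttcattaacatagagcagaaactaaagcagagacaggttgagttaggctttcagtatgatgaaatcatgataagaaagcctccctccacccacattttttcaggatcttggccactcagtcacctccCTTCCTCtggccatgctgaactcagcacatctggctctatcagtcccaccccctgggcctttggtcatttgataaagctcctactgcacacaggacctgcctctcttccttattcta
Fcna: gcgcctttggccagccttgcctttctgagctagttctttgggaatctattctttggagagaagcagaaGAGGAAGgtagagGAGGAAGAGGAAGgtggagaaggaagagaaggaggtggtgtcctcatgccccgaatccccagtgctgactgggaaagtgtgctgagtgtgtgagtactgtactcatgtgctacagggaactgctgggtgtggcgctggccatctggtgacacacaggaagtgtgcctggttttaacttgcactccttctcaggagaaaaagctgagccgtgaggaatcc
Marco: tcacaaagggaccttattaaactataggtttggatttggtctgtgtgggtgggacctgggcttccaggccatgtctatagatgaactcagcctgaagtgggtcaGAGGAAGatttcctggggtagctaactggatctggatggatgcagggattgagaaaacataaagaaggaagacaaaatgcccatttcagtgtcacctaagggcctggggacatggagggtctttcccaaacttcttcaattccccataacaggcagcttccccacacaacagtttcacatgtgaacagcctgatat

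Of the 32 members, 27 had a window in the RefSeq table, 32 windows in all, and the other 5 (Tyrobp, C1qa, Spi1, Adgre1 and Csf1r) are named only. The core was found on either strand in 9 of the 32 windows (28.1%), those of Marco, Fcna, Cd5l, C1qc, Ctss, Fcgr1, Laptm5 and 2 overlapping windows of Ly6c2, and in 13.6% of the 32851 windows of the whole table. The hypoxia response core ACGTG was found on either strand in 2 of the 32 windows (6.25%), those of Cd163 and Irf8, against 19.6% of the whole table. The glucocorticoid response element in its palindromic form was in 0 of 32 windows and in 0.475% of the whole table. A match of letters describes the window and is not a binding site. The window of Cd163, the member with the largest rise with DEX in normoxia, is at chr6:124304401-124304700 (plus strand), with the ACGTG core, read as CACGT on this strand, in capitals.
Cd163: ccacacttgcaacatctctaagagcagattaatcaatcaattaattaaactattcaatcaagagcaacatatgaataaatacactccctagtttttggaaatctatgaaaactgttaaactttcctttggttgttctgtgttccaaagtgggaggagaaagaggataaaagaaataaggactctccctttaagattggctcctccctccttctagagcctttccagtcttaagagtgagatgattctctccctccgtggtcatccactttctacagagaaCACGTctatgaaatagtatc

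The 3 monocyte genes were at low levels, with Ly6c2 and Cx3cr1 near the limit of detection. Summed, the 3 genes were higher in each Normoxia_PBS library than in any other library. Ccr2, the receptor with which monocytes leave the bone marrow and enter tissue, was at 3.65, 3.36 and 2.57 CPM in Normoxia_PBS, 1.36, 1.62 and 1.12 in Normoxia_DEX, 0.643, 0.657 and 0.873 in Hypoxia_PBS and 0.888, 0.437 and 0.893 in Hypoxia_DEX. All 9 libraries of the other groups lay below the 3 Normoxia_PBS libraries. Ccr2 fell by 2.14 ± 0.27 with hypoxia in PBS mice (adjusted p = 7.11e-05, edgeR) and fell by 1.21 ± 0.24 with DEX in normoxia (adjusted p = 0.00282, edgeR). Between the hypoxia groups it differed by 0.091 ± 0.33 (adjusted p = 0.895, edgeR), with overlapping libraries. In DEX mice Ccr2 fell by 0.84 ± 0.29 with hypoxia (adjusted p = 0.0317, edgeR), and this call rested on single libraries. It ended on leaving out Normoxia_DEX-1, Normoxia_DEX-2 or any 1 Hypoxia_DEX library, with Hypoxia_DEX-1 and Hypoxia_DEX-3 summed, with Hypoxia_DEX-2 and Hypoxia_PBS-1 both left out, without the filter and with DESeq2, and its adjusted p ran from 0.0289 to 0.138 over the alternatives.

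Ly6c2 and Cx3cr1 were not tested, and their counts are given over each group. Ly6c2, a surface antigen of classical monocytes, was at 0.348, 1.07 and 0.989 CPM in Normoxia_PBS, 0.397, 0.290 and 0.249 in Normoxia_DEX, 0.117, 0.438 and 0.336 in Hypoxia_PBS and 0, 0.0874 and 0.315 in Hypoxia_DEX, which was 42, 18, 13 and 7 counts over the 4 groups in that order. The exact Poisson 95% intervals of the group levels were 0.582 to 1.09 CPM in Normoxia_PBS, 0.184 to 0.492 in Normoxia_DEX, 0.151 to 0.486 in Hypoxia_PBS and 0.0594 to 0.304 in Hypoxia_DEX, which cover counting error only. Its reads may be shared with the near-identical paralog Ly6c1. Cx3cr1, the fractalkine receptor of patrolling monocytes, was at 0.464, 0.816 and 0.527 CPM in Normoxia_PBS, 0.0567, 0.124 and 0.124 in Normoxia_DEX, 0.117, 0 and 0.201 in Hypoxia_PBS and 0, 0 and 0 in Hypoxia_DEX. It had 32 counts in Normoxia_PBS, 6 in Normoxia_DEX, 5 in Hypoxia_PBS and 0 in Hypoxia_DEX. With Hypoxia_DEX set at a floor of 3 counts over the group and Normoxia_PBS at its measured level, Hypoxia_DEX was at least 9.71-fold lower. That bound leaves out the counting error of Normoxia_PBS, and the exact Poisson 95% intervals were 0.421 to 0.868 CPM in Normoxia_PBS and 0 to 0.0778 in Hypoxia_DEX. An exon of Cx3cr1 overlaps the opposite-strand gene Gm33858.

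**Figure D3:**
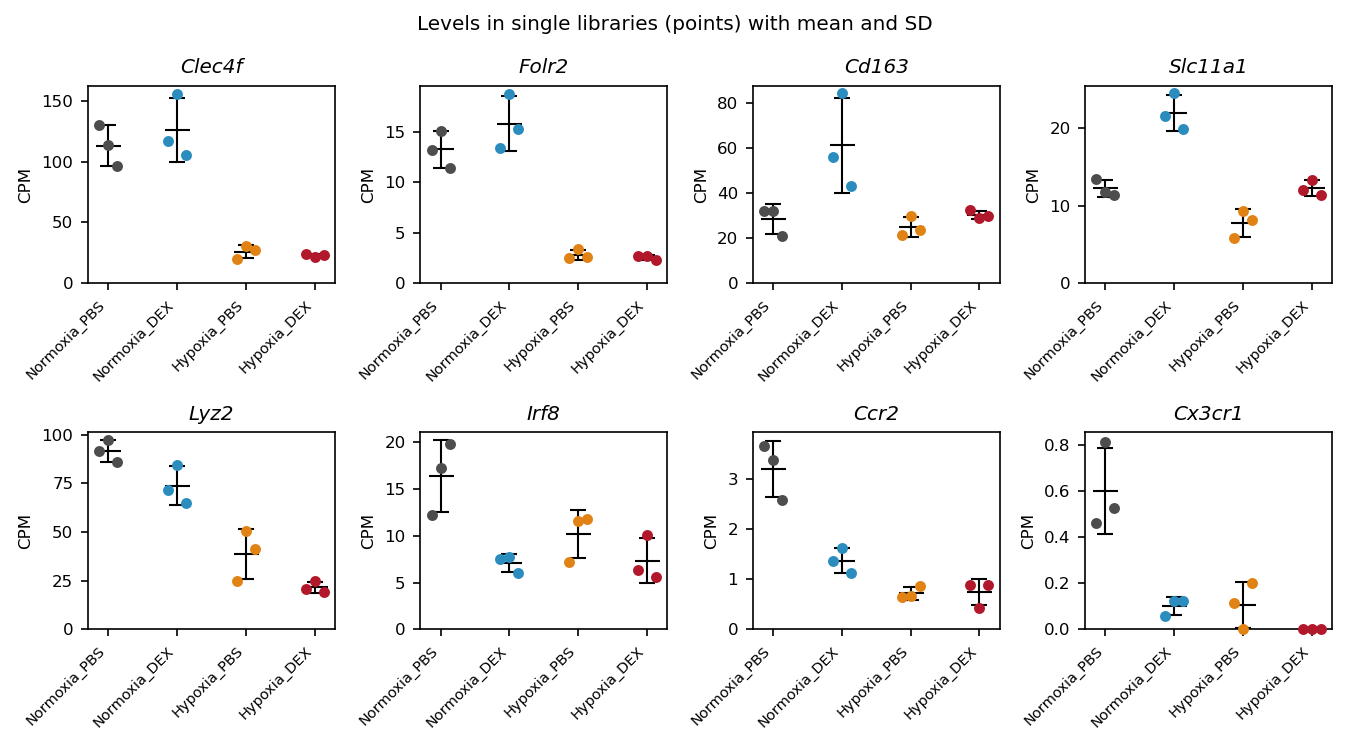
Points give the CPM of single libraries for 8 of the genes in the 4 groups, with the mean as a horizontal mark and bars of 1 SD (n = 3), each panel on its own linear axis from 0. Clec4f and Folr2 stand high in both normoxia groups, Cd163 and Slc11a1 are highest in Normoxia_DEX, and Ccr2 and Cx3cr1 are highest in Normoxia_PBS.

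Set against the resident genes, the monocyte signal was small in each library. The 3 monocyte genes summed to 4.09 to 5.25 CPM in Normoxia_PBS, 1.49 to 2.03 in Normoxia_DEX, 0.877 to 1.41 in Hypoxia_PBS and 0.524 to 1.21 in Hypoxia_DEX. As a share of the summed resident CPM this was 0.693%, 0.869% and 0.831% in Normoxia_PBS, 0.296%, 0.254% and 0.268% in Normoxia_DEX, 0.401%, 0.414% and 0.593% in Hypoxia_PBS and 0.334%, 0.206% and 0.482% in Hypoxia_DEX. The 3 Normoxia_PBS libraries had the 3 highest shares, and no library of another group reached them. On a log scale with an offset of 1 CPM the order was another. This offset shrinks differences of genes at low CPM, such as the monocyte genes. The mean log2(CPM + 1) of the 11 resident genes minus that of the 3 monocyte genes was 4.08 to 4.51 in Normoxia_PBS, 4.93 to 5.30 in Normoxia_DEX, 3.71 to 4.01 in Hypoxia_PBS and 3.84 to 4.13 in Hypoxia_DEX, and every Hypoxia_PBS library lay below every Normoxia_PBS library. The 13 further monocyte genes summed to 63.1 to 72.9 CPM in Normoxia_PBS, 47 to 68.1 in Normoxia_DEX, 30.4 to 51.5 in Hypoxia_PBS and 29.6 to 38.7 in Hypoxia_DEX, beside the resident sums given above. Ccr2, the 1 tested monocyte gene, had fitted log2 fold changes with hypoxia of -2.14 in PBS mice and -0.84 in DEX mice. The resident medians were -1.27 and -1.24. The relation of monocyte to resident genes thus differed with the measure, the gene list and the injection. The log difference with its offset cannot decide it for genes at such low levels. The shares rest on 6 to 103 monocyte counts per library, and no p is given for a score over chosen genes.

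**Figure D4:**
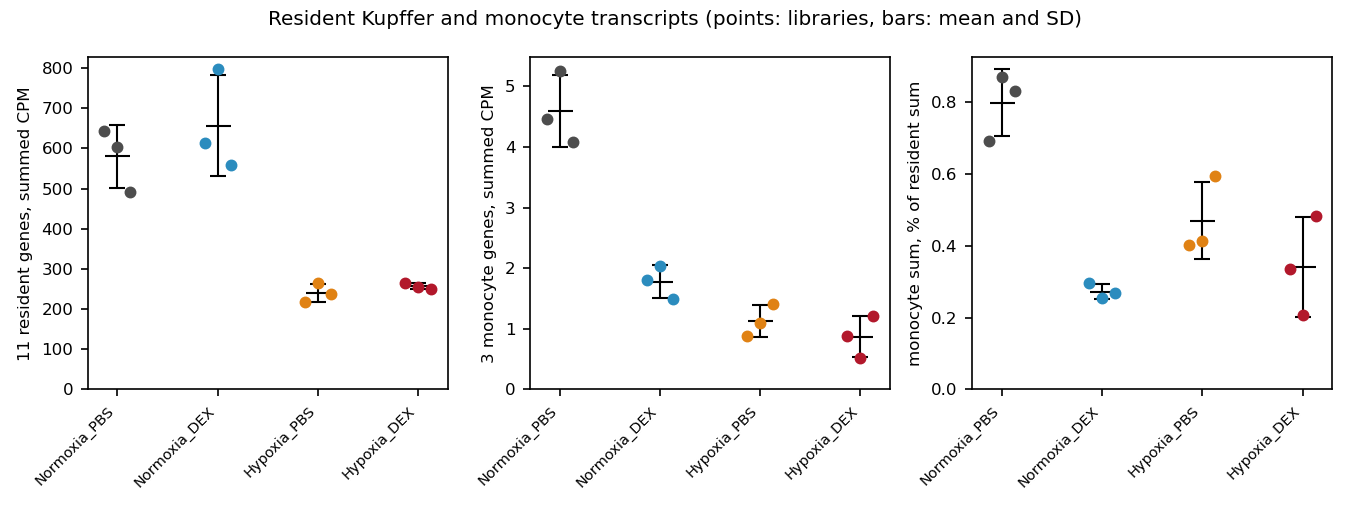
Points give, for each library, the summed CPM of the 11 resident Kupffer genes (left), the summed CPM of the 3 monocyte genes (middle) and the monocyte sum as a percentage of the resident sum (right), with the mean and bars of 1 SD (n = 3) on linear axes from 0. The resident sums of the hypoxia libraries lie between 219 and 266 CPM, all below the normoxia libraries, and the monocyte sums are highest in Normoxia_PBS.

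The 18 pan-myeloid genes were all called lower with hypoxia in PBS mice, and 17 of them in DEX mice, with a median log2 fold change of -0.96 and -1.12. Their summed level was 514 to 583 CPM in Normoxia_PBS, 456 to 629 in Normoxia_DEX, 216 to 318 in Hypoxia_PBS and 222 to 251 in Hypoxia_DEX. They include the receptor on which the lineage depends, the general surface and lysosome markers, and the transcription factors. The counts and medians also include Ms4a7, which was called lower in both comparisons and passed the filter through the normoxia libraries alone.

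Csf1r, the receptor for CSF1 and IL34 that keeps Kupffer cells alive, was at 93.1, 88.2 and 68.1 CPM in Normoxia_PBS, 86.6, 112 and 75.2 in Normoxia_DEX, 37.2, 48 and 41.1 in Hypoxia_PBS and 38.3, 40.5 and 34.2 in Hypoxia_DEX. The hypoxia libraries lay below the normoxia libraries without overlap, and DEX and PBS libraries overlapped at both oxygen levels. Its log2 fold change was -0.98 ± 0.16 in PBS mice (adjusted p = 0.000628, edgeR) and -1.28 ± 0.16 in DEX mice (adjusted p = 7.32e-05, edgeR). An exon of Csf1r overlaps the opposite-strand gene Hmgxb3. Adgre1, which encodes the macrophage antigen F4/80, was at 36.1, 33.8 and 27.2 CPM in Normoxia_PBS, 27.9, 38.2 and 25.7 in Normoxia_DEX, 8.88, 13 and 9.94 in Hypoxia_PBS and 6.63, 8.30 and 5.99 in Hypoxia_DEX. It stood lowest in Hypoxia_DEX, where every library was below every Hypoxia_PBS library. The log2 fold change with hypoxia was -1.62 ± 0.19 in PBS mice and -2.16 ± 0.19 in DEX mice (edgeR adjusted p = 5.92e-05 and 6.98e-06). With DEX in hypoxia Adgre1 differed by -0.62 ± 0.20 (adjusted p = 0.0702, edgeR), and it was called lower there with DESeq2 (adjusted p = 0.0358), with a block for the replicate number (adjusted p = 0.0107), without Normoxia_DEX-2 (adjusted p = 0.0355) and without Hypoxia_DEX-2 and Hypoxia_PBS-1 together (adjusted p = 0.0442).

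Cd68, a lysosomal glycoprotein of macrophages, was at 12.5, 12.3 and 9.36 CPM in Normoxia_PBS, 9.58, 13.7 and 9.57 in Normoxia_DEX, 5.26, 6.43 and 6.38 in Hypoxia_PBS and 5.03, 6.64 and 4.99 in Hypoxia_DEX. Its oxygen groups did not overlap, and the log2 fold change was -0.93 ± 0.18 in PBS mice and -1.01 ± 0.18 in DEX mice (edgeR adjusted p = 0.00147 and 0.000627). Lyz2, the myeloid lysozyme gene, was at 91.7, 97.1 and 85.8 CPM in Normoxia_PBS, 71.7, 84.6 and 64.8 in Normoxia_DEX, 25, 50.3 and 41.2 in Hypoxia_PBS and 21, 24.8 and 19 in Hypoxia_DEX. Per kilobase of exon it had the highest level of the 32 genes in Normoxia_PBS, at 69.6 CPM per kilobase. Lyz2 fell by 1.24 ± 0.21 in PBS mice and fell by 1.78 ± 0.22 in DEX mice (edgeR adjusted p = 0.00129 and 0.000117). Cfp, which encodes the complement stabilizer properdin, was at 38.5, 37 and 32.8 CPM in Normoxia_PBS, 39.3, 48.4 and 33.6 in Normoxia_DEX, 18.4, 22.8 and 21.6 in Hypoxia_PBS and 21.8, 20.8 and 18.4 in Hypoxia_DEX. It fell by 0.79 ± 0.13 in PBS mice and fell by 0.996 ± 0.13 in DEX mice (edgeR adjusted p = 0.000448 and 5.34e-05), without overlap.

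Ptprc, the pan-leukocyte antigen CD45, was at 25.9, 31.3 and 28.2 CPM in Normoxia_PBS, 23.3, 25.4 and 19.3 in Normoxia_DEX, 9.995, 20.7 and 16 in Hypoxia_PBS and 13.1, 14.9 and 12.2 in Hypoxia_DEX. The hypoxia libraries lay below the normoxia libraries under both injections. Ptprc fell by 0.88 ± 0.21 in PBS mice (adjusted p = 0.00677, edgeR) and fell by 0.77 ± 0.21 in DEX mice (adjusted p = 0.0119, edgeR), where the call was lost without Normoxia_DEX-2 (adjusted p = 0.0503) or Hypoxia_DEX-3 (adjusted p = 0.0527). Cybb, the catalytic subunit of the phagocyte NADPH oxidase, fell by 0.57 ± 0.16 in PBS mice, a call lost without Normoxia_PBS-2 (edgeR adjusted p = 0.0177 and 0.0688). In DEX mice Cybb fell by 0.48 ± 0.17 (adjusted p = 0.0336, edgeR), and that call was lost without Normoxia_DEX-2 or any 1 Hypoxia_DEX library, with Hypoxia_DEX-1 and Hypoxia_DEX-3 summed and without the filter. Without Normoxia_DEX-2 its log2 fold change was -0.31.

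The other pan-myeloid genes lie mostly in phagocyte signalling and lysosomes. Fcgr1, the high-affinity IgG receptor, had log2 fold changes of -1.30 in PBS mice and -1.69 in DEX mice. Fcer1g, the gamma chain through which it signals, and Tyrobp, an adaptor of other myeloid receptors, had -0.91 and -0.89 in PBS mice and -1.19 and -1.07 in DEX mice. The pore-forming protein gene Mpeg1, the lysosomal gene Laptm5 and the protease gene Ctss had log2 fold changes of -1.19, -1.27 and -1.29 in PBS mice and -1.02, -1.16 and -1.23 in DEX mice. Aif1, the actin-binding macrophage protein IBA1, had -1.66 ± 0.33 and -1.87 ± 0.34, from a mean of 4.55 ± 0.926 CPM (SD, n = 3) in Normoxia_PBS. For these 7 genes the edgeR adjusted p was at most 0.00551 in both comparisons and stayed called under all 19 alternatives, and the oxygen groups did not overlap. Ms4a7, at 57 counts over Normoxia_PBS, 58 over Normoxia_DEX, 21 over Hypoxia_PBS and 13 over Hypoxia_DEX, had log2 fold changes of -1.22 ± 0.40 and -1.84 ± 0.44 (edgeR adjusted p = 0.0297 and 0.00451). The PBS-mouse call of Ms4a7 was lost without Normoxia_PBS-2, Normoxia_PBS-3, Hypoxia_PBS-1 or Hypoxia_PBS-3, with Hypoxia_PBS-1 and Hypoxia_DEX-2 both left out and with the fit limited to the 2 groups compared, at adjusted p up to 0.106.

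Some pan-myeloid genes were also called with DEX. These were the transcription factor genes Spi1 and Irf8 in normoxia, the transporter gene Slc11a1 at both oxygen levels and Lyz2 in hypoxia. Spi1 (PU.1) was at 10.1, 9.68 and 9.10 CPM in Normoxia_PBS, 5.44, 7.71 and 5.41 in Normoxia_DEX, 3.62, 6.43 and 5.24 in Hypoxia_PBS and 3.31, 3.93 and 3.99 in Hypoxia_DEX. The Normoxia_PBS libraries were above all others, and the remaining groups lay closer together. With hypoxia Spi1 fell by 0.93 ± 0.19 in PBS mice (adjusted p = 0.0024, edgeR) and fell by 0.74 ± 0.20 in DEX mice (adjusted p = 0.0103, edgeR), the latter lost without Normoxia_DEX-2 or Hypoxia_DEX-1. Irf8, a factor of monocyte and dendritic cell development, was at 12.2, 17.2 and 19.8 CPM in Normoxia_PBS, 7.48, 7.75 and 6.03 in Normoxia_DEX, 7.19, 11.5 and 11.7 in Hypoxia_PBS and 6.39, 10.1 and 5.57 in Hypoxia_DEX. All 3 Normoxia_PBS libraries lay above every library of the other groups. In PBS mice Irf8 fell by 0.69 ± 0.25 with hypoxia (adjusted p = 0.0472, edgeR), close to the threshold. That call was lost without any 1 Hypoxia_PBS library, Normoxia_PBS-2, Normoxia_PBS-3, Normoxia_DEX-1, Normoxia_DEX-2 or Hypoxia_DEX-1, without the filter and with the fit limited to the 2 groups compared, at adjusted p up to 0.142.

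Slc11a1 (NRAMP1), a metal transporter of the phagosome, was at 13.5, 11.8 and 11.3 CPM in Normoxia_PBS, 21.5, 24.5 and 19.9 in Normoxia_DEX, 5.85, 9.35 and 8.19 in Hypoxia_PBS and 12.1, 13.4 and 11.3 in Hypoxia_DEX. It was highest in Normoxia_DEX and lowest in Hypoxia_PBS, and the Normoxia_PBS and Hypoxia_DEX libraries between them overlapped. With hypoxia it fell by 0.66 ± 0.15 in PBS mice (adjusted p = 0.00471, edgeR) and fell by 0.85 ± 0.14 in DEX mice (adjusted p = 0.00039, edgeR). With DEX it rose by 0.85 ± 0.14 in normoxia (adjusted p = 0.000844, edgeR) and by 0.66 ± 0.15 in hypoxia (adjusted p = 0.0127, edgeR). None of these 4 comparisons had overlapping libraries. The call in hypoxia was lost with the fit limited to the 2 groups compared (adjusted p = 0.0564).

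DEX moved few of the genes. In normoxia 2 of the 30 tested members were called higher and 3 lower, against 9.38% of all tested genes higher and 7.4% lower, and the median log2 fold change of the members was 0.025 beside 0.0021 for all genes. In hypoxia 1 was called higher and 1 lower, against 6.13% higher and 7.05% lower of all tested genes, and the medians were -0.11 and -0.015. These shares of members are near the background. Slc11a1 was the 1 member called higher at both oxygen levels, and 0 members were called lower at both.

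In normoxia Cd163 rose to 216% of the PBS level, a log2 fold change of 1.11 ± 0.25 (adjusted p = 0.0111, edgeR), and the 3 DEX libraries lay above the 3 PBS libraries. The call was lost with the fit limited to the 2 groups compared (adjusted p = 0.0757). Ccr2 and Irf8 fell with DEX in normoxia to 43.3% and 43.5% of the PBS level, with a log2 fold change of -1.20 ± 0.25 for Irf8 (adjusted p = 0.00598, edgeR), and both calls held under all 19 alternatives. Spi1 fell by 0.63 ± 0.19 (adjusted p = 0.0332, edgeR), and this call was lost without any 1 Normoxia_PBS library, Normoxia_DEX-1 or Normoxia_DEX-3, at adjusted p up to 0.123. The other 10 resident genes were not called with DEX in normoxia, and their log2 differences ran from -0.30 for Marco to 0.31 for Timd4. Mpeg1 was called lower without Normoxia_DEX-2 (adjusted p = 0.0089), the library that was highest in its group for 27 of the 32 genes. Cybb was called lower without Hypoxia_PBS-1 and with a block for the replicate number (adjusted p = 0.0442 and 0.0425). Lyz2 was called lower without Hypoxia_PBS-1 and Hypoxia_DEX-2 together and with the fit limited to the 2 groups compared (adjusted p = 0.0378 and 0.0493).

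In hypoxia the 1 gene called lower with DEX was Lyz2, at -0.85 ± 0.22 (adjusted p = 0.0284, edgeR), with the 3 DEX libraries below the 3 PBS libraries and Hypoxia_PBS-1 nearest to them. This call was lost without Hypoxia_PBS-2, Hypoxia_PBS-3, Hypoxia_DEX-1 or Hypoxia_DEX-3, with Hypoxia_DEX-1 and Hypoxia_DEX-3 summed, without the filter and with the fit limited to the 2 groups compared, at adjusted p up to 0.113. Cd163, which rose with DEX in normoxia, differed by 0.29 ± 0.25 in hypoxia (adjusted p = 0.517, edgeR), and its libraries overlapped. Hypoxia_PBS-1 was the lowest of its group for 27 of the 32 genes and Hypoxia_PBS-2 the highest for 27. Without Hypoxia_PBS-1 Spi1 was called lower (adjusted p = 0.0414), and without Hypoxia_PBS-2 Marco was called higher, at 0.79 (adjusted p = 0.0101). Without Hypoxia_PBS-1 and Hypoxia_DEX-2 together, 4 members were called lower with DEX in hypoxia, Irf8, Ptprc, Adgre1 and Lyz2.

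**Figure D5:**
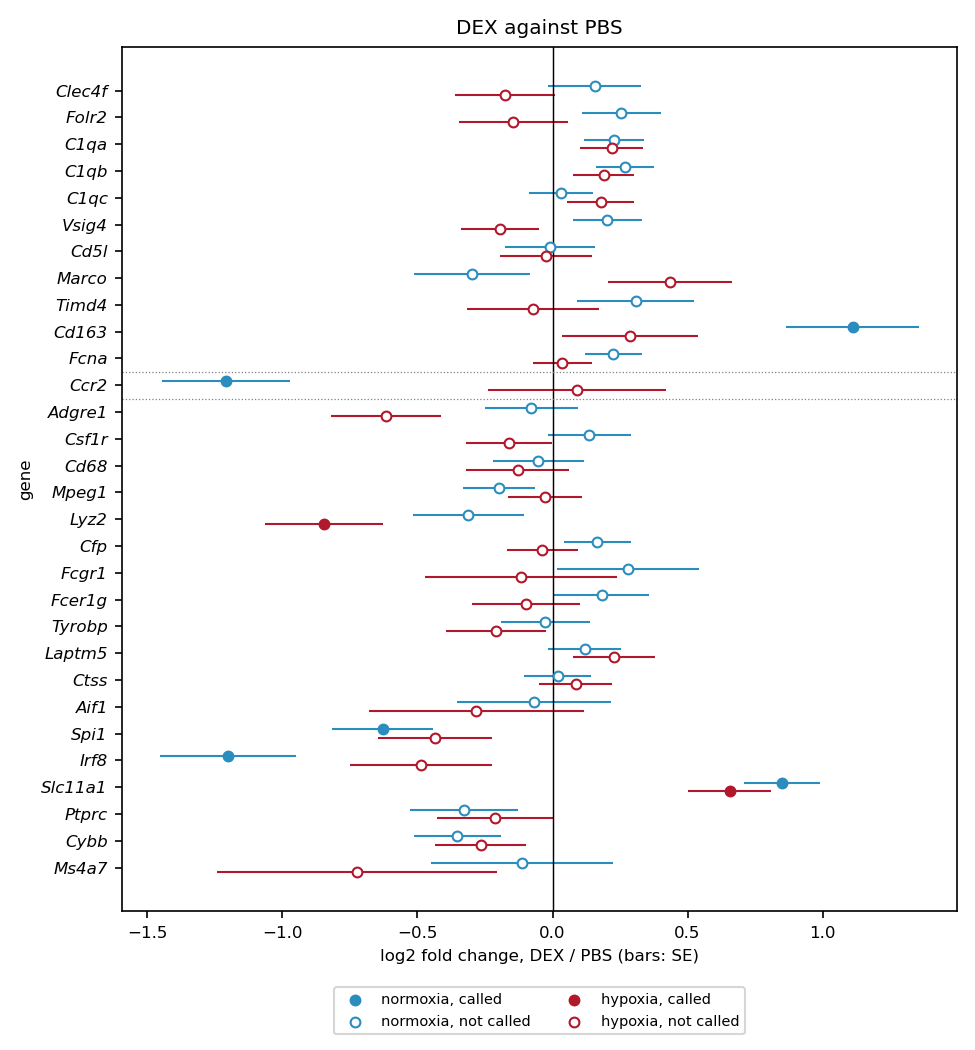
Points give the log2 fold change of DEX over PBS for each tested gene, blue in normoxia and red in hypoxia, with bars of 1 SE, filled where called and open where not. Most points lie near 0. The filled ones are Cd163, Slc11a1, Ccr2, Irf8 and Spi1 in normoxia and Slc11a1 and Lyz2 in hypoxia.

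The difference of the DEX responses, hypoxia minus normoxia, was called in 0 of the 30 members in either direction by edgeR and by DESeq2, against 0.325% of all tested genes higher and 0.996% lower. At an unadjusted p under 0.05 edgeR had 2 members higher and 1 lower. Ccr2 differed by 1.30 ± 0.41 (adjusted p = 0.166), Marco by 0.73 ± 0.31 and Cd163 by -0.82 ± 0.35 (adjusted p = 0.373 for both). Cd163 was thus called with DEX in normoxia and not in hypoxia, but a difference between these responses was not shown. With libraries left out, 2 members passed the threshold in this comparison. Marco was higher without Hypoxia_PBS-2, at 1.10 (adjusted p = 0.0346), and Lyz2 was lower without Hypoxia_PBS-1, at -0.74 (adjusted p = 0.0463), and without it and Hypoxia_DEX-2.

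Other genes listed for Kupffer cells moved less uniformly than the members, and whole-liver RNA does not show in which cells they moved. Of 12 further tested Kupffer genes, 4 were lower and 0 higher with hypoxia in PBS mice, and 5 were lower and 1 higher in DEX mice. Their median log2 fold change was -0.37 and -0.24. Their summed level overlapped in PBS mice, at 701 to 815 CPM in Normoxia_PBS and 693 to 803 in Hypoxia_PBS. In DEX mice it was 642 to 772 in Normoxia_DEX and 546 to 576 in Hypoxia_DEX. Over all tested genes, 16.8% were lower and 18.9% higher in PBS mice, and 22.2% were lower and 20.7% higher in DEX mice. The proteoglycan gene Sdc3 fell by 1.40 ± 0.13 in PBS mice and fell by 1.44 ± 0.13 in DEX mice (edgeR adjusted p = 7.61e-06 and 4.09e-06), and the phagocytic receptor tyrosine kinase gene Axl had log2 fold changes of -1.38 ± 0.15 and -1.38 ± 0.15 (edgeR adjusted p = 1.82e-05 and 1.27e-05). With DEX, 3 of the 12 were higher and 3 lower in normoxia and 1 was higher and 3 lower in hypoxia. The shares over all tested genes were 9.38% higher and 7.4% lower in normoxia and 6.13% higher and 7.05% lower in hypoxia. The same shares are the background for the counts of the lists below. Id3, a regulator that Kupffer cells need for their development, fell by 2.64 ± 0.19 in normoxia and fell by 1.58 ± 0.19 in hypoxia (edgeR adjusted p = 4.33e-06 and 0.000306). Spic, the factor of haem-handling macrophages, fell by 1.52 ± 0.26 with DEX in normoxia (adjusted p = 0.00171, edgeR).

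Among 13 tested macrophage transcription factor genes, 0 were higher and 5 lower with hypoxia in PBS mice, and 3 were higher and 3 lower in DEX mice. The counts in DEX mice were near the shares over all tested genes, 20.7% higher and 22.2% lower. With DEX 3 of the 13 were higher and 5 lower in normoxia, and 2 were higher and 2 lower in hypoxia. Bhlhe40 fell by 1.29 ± 0.15 with DEX in normoxia (adjusted p = 9.38e-05, edgeR). Irf5, a factor of inflammatory macrophages, fell by 1.38 ± 0.23 with hypoxia in PBS mice and fell by 1.06 ± 0.25 in DEX mice (edgeR adjusted p = 0.000779 and 0.00531).

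Of 10 tested genes of the CSF1, TGF-beta and monocyte-attracting chemokine signals, 6 were lower and 0 higher with DEX in normoxia and 4 lower and 0 higher in hypoxia. The monocyte chemokine genes Ccl2 and Ccl7, which encode ligands of CCR2, had log2 fold changes of -6.19 ± 1.07 and -3.84 ± 0.64 in normoxia (edgeR adjusted p = 0.00449 and 0.00201). Csf1, which encodes a ligand of Csf1r, fell by 2.70 ± 0.60 in normoxia (adjusted p = 0.0154, edgeR), a call lost without any 1 Normoxia_DEX library at adjusted p up to 0.0598. In hypoxia Ccl2, Csf1 and Ccl7 had log2 fold changes of -3.42, -2.24 and -2.19 (edgeR adjusted p = 0.0332, 0.0379 and 0.0387), and each of these calls was lost under at least 10 of the 19 alternatives. With hypoxia 1 gene of these signals was higher and 3 lower in PBS mice, and 1 was higher and 1 lower in DEX mice.

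Of 14 tested phagocytic receptor genes, 7 were lower and 1 higher with hypoxia in PBS mice and 6 lower and 1 higher in DEX mice. Itgax and Itgb2, chains of the leukocyte integrin CD11c/CD18, had log2 fold changes of -1.49 ± 0.39 and -0.88 ± 0.17 in PBS mice (edgeR adjusted p = 0.00906 and 0.00162). With DEX 2 of these receptor genes were higher and 1 lower in normoxia and 0 higher and 1 lower in hypoxia. Sirpa, the inhibitory receptor for CD47, fell by 1.23 ± 0.14 in normoxia and fell by 1.05 ± 0.15 in hypoxia (edgeR adjusted p = 4.48e-05 and 0.000515). Of 11 further tested monocyte genes, 2 were higher and 6 lower with hypoxia in PBS mice and 1 higher and 4 lower in DEX mice. Chil3, a chitinase-like protein of activated monocytes, macrophages and neutrophils, rose by 2.97 ± 0.40 in PBS mice and 3.27 ± 0.40 in DEX mice (edgeR adjusted p = 0.000115 and 3.78e-05). Treml4, a receptor of non-classical monocytes, fell by 1.06 ± 0.16 with DEX in normoxia (adjusted p = 0.000483, edgeR), where 1 further monocyte gene was higher and 3 lower. In hypoxia 1 was higher and 2 lower with DEX.

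Markers of other liver and blood cells moved beside these results. Their counts stand against 18.9% higher and 16.8% lower of all tested genes in PBS mice and 20.7% higher and 22.2% lower in DEX mice. With hypoxia in PBS mice, 0 of 5 tested hepatocyte genes were higher and 2 lower, 1 of 10 endothelial genes was higher and 5 lower, 1 of 10 stellate cell genes was higher and 5 lower, 1 of 7 neutrophil genes was higher and 0 lower, 0 of 5 dendritic cell genes were higher and 4 lower, and 0 of 9 lymphocyte genes were higher and 4 lower. The stellate cell collagen gene Col3a1 fell by 2.18 ± 0.11 (adjusted p = 1.04e-07, edgeR), and the neutrophil granule gene Ngp rose by 2.69 ± 0.72 (adjusted p = 0.0113, edgeR). The summed CPM of the endothelial genes was 458 to 494 in Normoxia_PBS and 401 to 413 in Hypoxia_PBS, that of the lymphocyte genes was 8.70 to 11.7 and 4.27 to 5.97, and that of the dendritic cell genes was 14.6 to 15.2 and 12.6 to 13.1. The stellate cell sum was 448 to 583 and 422 to 516. The neutrophil sum was 32.1 to 53.2 in Normoxia_PBS and 26.8 to 100.9 in Hypoxia_PBS, and in Normoxia_DEX and Hypoxia_DEX it was 11.7 to 19.8 and 21.4 to 49.6. In single libraries up to 3 of the 9 neutrophil markers were at 0, among them the defining marker Ly6g, and up to 1 marker was at 0 in the dendritic and the lymphocyte lists. With hypoxia in DEX mice the counts differed in part, with 0 of 5 hepatocyte genes higher and 2 lower, 1 of 10 endothelial genes higher and 4 lower, 0 of 10 stellate cell genes higher and 7 lower, 2 of 7 neutrophil genes higher and 0 lower, 0 of 5 dendritic cell genes higher and 3 lower, and 0 of 9 lymphocyte genes higher and 1 lower. The endothelial sum was 468 to 517 CPM in Normoxia_DEX and 403 to 421 in Hypoxia_DEX, and the stellate cell sum was 584 to 629 and 505 to 515. The lymphocyte sums overlapped there, at 5.47 to 7.03 and 4.11 to 7.16, and the dendritic cell sums nearly met, at 12.87 to 17.4 and 10.6 to 12.86. A sum follows its most abundant genes, so medians of the log2 fold changes of the tested genes are given too. In PBS mice they were -0.26 (hepatocyte), -0.11 (endothelial), -0.46 (stellate), 0.39 (neutrophil), -1.66 (dendritic) and -1.01 (lymphocyte). In DEX mice they were -0.20, -0.17, -0.48, 1.07, -1.59 and -0.13 in that order. The members had -1.15 in both. The part of these cells in the member results was not tested.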

How the data were processed

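The submitters' processing notes list mm10, featureCounts, SAMtools, Trimmomatic, DESeq2 and HISAT2 2.0.4 without roles. Gene annotation and strandedness of the counting are not stated there, and per the labels' protocols a stranded mRNA kit was used. The authors' deposited table held raw counts per Ensembl gene, whole numbers without normalization, for 12 libraries. Groups came from the labels, whose protocol uses the word hypoxia for both oxygen arms where the titles name normoxia.

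Members and the other gene lists were chosen with earlier results of these data known. The fit used edgeR 4.0.16 under R 4.3.3 (filterByExpr, TMM, robust quasi-likelihood, 1 mean per group over 12 libraries, 8 residual degrees of freedom). A check of the code on simulated data changed a small share of genes, in Hypoxia_DEX alone. That check does not cover changes as broad as those with hypoxia. Genes entered the fit at a filter of about 0.594 CPM in enough libraries. p-values were adjusted by Benjamini-Hochberg across the 13861 tested genes of each comparison, with 0.05 as the threshold. Of the identifiers, 54723 had a symbol. Overlap means that the ranges of the libraries' CPM in the compared groups meet. The share of all tested genes without overlap was not computed for any comparison, so overlap is given as a description. Values in each library were printed for 21 members fixed by role, and from each other list up to 3 genes with the largest called change and at least 1 CPM in a group, in order of size. Alternatives were DESeq2 1.42.0, RLE scaling, no filter, a block for the replicate number, a fit limited to the 2 groups compared, Hypoxia_DEX-1 and Hypoxia_DEX-3 summed, and leaving out each library or both Hypoxia_PBS-1 and Hypoxia_DEX-2. Applying them to genes of the other lists was decided after seeing the data. Positions and exon overlaps came from GENCODE M21 (GRCm38), promoters from RefSeq (GRCm38.p6). A hepatocyte marker of the list, Tf, is not analysed here. A gene of the transcription factor list that the naming rule chose is not reported here. p-values set a difference against the spread between the 3 biological replicates within groups. That spread was estimated over the 4 groups together, except in the fits limited to the 2 groups compared.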

Additional observations from a re-analysis of the deposited data

Results flagged for a closer look

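For 3 genes of the lists that were set beside the members, the DEX response differed between hypoxia and normoxia by edgeR's test of the difference itself. The log2 response of Bhlhe40, a transcription factor of macrophages and of many other cells, was higher in hypoxia by 1.24 ± 0.22 (adjusted p = 0.0181), a call lost without Normoxia_PBS-2 (adjusted p = 0.0505). For Kdr, the endothelial VEGF receptor gene, the response was higher in hypoxia by 0.59 ± 0.13 (adjusted p = 0.047), a call lost under 11 of the 18 alternatives run for this comparison. The response of Lyve1, a hyaluronan receptor gene of sinusoidal endothelium that some macrophages also express, differed by -1.27 ± 0.16 (adjusted p = 0.00202), with adjusted p from 4.53e-08 to 0.0108 over the alternatives.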

How the results depend on the processing

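Of 150 results for single members (30 genes in 5 comparisons), 127 kept their call under every alternative run (19, or 18 for the differences of the DEX responses and for Ms4a7 with DEX in hypoxia), 13 lost a call in at least 1, 10 gained one in at least 1, and 0 turned direction while called. Members lower with hypoxia numbered 25 to 30 in PBS mice and 24 to 29 in DEX mice over the alternatives, which tested 30 to 32 members. Where more than 30 were tested, Ly6c2, Cx3cr1 or both had entered. Cd163 was called in PBS mice under none of them. Members lower with DEX in hypoxia, 1 in the fit reported, numbered 2 with DESeq2, 2 with the replicate block, 4 without Hypoxia_DEX-2 and Hypoxia_PBS-1, and 0 without the filter, with the fit limited to the compared groups and with Hypoxia_DEX-1 and Hypoxia_DEX-3 summed, and leaving out single libraries gave 0 to 2. Members higher with DEX numbered 1 in normoxia and 0 in hypoxia with the fit limited to the compared groups, and 1 to 2 in hypoxia without single libraries. In the difference of the DEX responses 0 to 1 members were higher and 0 to 1 lower without single libraries, and 1 was lower without Hypoxia_DEX-2 and Hypoxia_PBS-1.

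Over all genes, those lower with DEX in hypoxia numbered 572 with the fit limited to the compared groups, 516 with the pair summed and 470 to 1251 without single libraries, and those higher numbered 535 to 1215 without single libraries. Genes with a higher DEX response in hypoxia numbered 119 with DESeq2, 85 without the filter, 19 with the pair summed, 153 without Hypoxia_DEX-2 and Hypoxia_PBS-1 and 17 to 93 without single libraries. Those with a lower response numbered 254 with DESeq2, 51 with the pair summed, 322 without those 2 libraries and 46 to 213 without single libraries. The cause of these differences was not tested.

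The replicate numbers did not pair the libraries. Same-number correlations of deviations from the group means ran from -0.151 to 0.390, 4 of 18 over 0.1, and 0 of 12 libraries correlated best with their own number in every other group. As a block, the replicate number gave 29 members lower with hypoxia in PBS mice and 29 in DEX mice, 2 higher and 4 lower with DEX in normoxia, and 1 higher and 2 lower with DEX in hypoxia. Low counts limit the monocyte genes and Ms4a7.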
